A study of Mus musculus with 14 samples.

Results

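The 5p and 3p arms of 3 mouse microRNA hairpins, miR-149, miR-150 and miR-139, were described in small vesicles that neutrophils shed. The members are mmu-miR-149-5p, mmu-miR-149-3p, mmu-miR-150-5p, mmu-miR-150-3p, mmu-miR-139-5p and mmu-miR-139-3p, 6 of the 1695 mature names in the deposited table. They were chosen by their log2 fold changes with 27-hydroxycholesterol (27HC), an oxidised metabolite of cholesterol, in earlier results of these data, where the 5p arm was lower and the 3p arm higher. Their differences between the treatments are therefore given below as a description, without a test. All 6 passed the filter on low counts and entered the fit over the whole table, which tested 239 names.

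The neutrophils were primary Ly6G+ cells of the bone marrow. The mice were BALB/c females of wild type, with an age not given in the sources used here. One group of cells was kept for 48 h with 10 µM 27HC and the other for 48 h with the solvent DMSO. Each group had 7 small RNA libraries, numbered 1 to 7. The library names also hold 2 running numbers each, the same in both groups, without saying whether these stand for pools or for matched samples. No label says whether the libraries of a group came from separate mice or cultures, so that errors and tests measure the spread between these libraries, which may be technical. The series concerns what such vesicles do to breast cancer cells.

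A microRNA is cut out of a hairpin precursor as a short duplex, of which the 5p strand comes from the first arm of the hairpin and the 3p strand from the second. Usually one strand is kept by an Argonaute protein and guides it to messenger RNAs through its seed, bases 2 to 8, while the other strand is discarded. For some hairpins both strands are kept, and the ratio of the arms differs between tissues. miR-150-5p is abundant in mature lymphocytes, where it represses the transcription factor Myb. miR-149-5p and miR-139-5p are known as repressors of growth in several tumours.

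The mature sequences are shown because the arms of a hairpin, although cut from the same transcript, carry different seeds. They were read from RefSeq on mouse build GRCm38.p6, run 5′ to 3′, and have the seed in capitals. Of the 6 names, 5 had an entry, and miR-150-5p is named only.
miR-149-5p: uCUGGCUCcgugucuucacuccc
miR-149-3p: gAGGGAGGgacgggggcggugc
miR-150-3p: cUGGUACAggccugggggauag
miR-139-5p: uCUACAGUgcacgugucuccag
miR-139-3p: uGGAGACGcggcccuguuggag
All 5 seeds differed from each other. Among the 1431 names of the table with a RefSeq sequence, no other name carried the seed of miR-149-5p, miR-150-3p, miR-139-5p or miR-139-3p. The seed of miR-149-3p was shared by miR-1943-5p, miR-6967-5p and miR-7016-5p, which had 157, 15 and 13 counts over all libraries and were not tested. The longest run of bases that any of the 5 arms shared with another name was 9 bases, so no near-identical copy was found among the names compared.

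The hairpins show where the arms lie. Both arms are in capitals, and the lower-case stretch between them is the loop side of the precursor.
Mir149: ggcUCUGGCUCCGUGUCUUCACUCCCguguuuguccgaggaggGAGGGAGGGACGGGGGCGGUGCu
Mir139: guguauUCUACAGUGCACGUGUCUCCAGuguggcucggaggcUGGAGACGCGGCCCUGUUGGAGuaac
In the structure predicted by RNAfold, 17 base pairs joined the arms of Mir149 and 19 joined those of Mir139. Mir149 lies on the plus strand at chr1:92850378-92850443, in an intron of Gpc1, which encodes the proteoglycan glypican. Mir139 lies on the plus strand at chr7:101475376-101475443, in an intron of Pde2a, a phosphodiesterase gene, and of the overlapping gene model Gm45837. Mir150 lies on the plus strand at chr7:45121757-45121821 and overlaps no other gene of GENCODE M21. These coordinates belong to GRCm38, while the submitters' processing notes name GRCm39.

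The 3p arms were rich in G. miR-149-3p had 15 G in 22 bases (68.2%), and miR-150-3p and miR-139-3p each had 10 in 22 (45.5%). By contrast, miR-139-5p had 22.7% and miR-149-5p 17.4%. Over the 201 tested names with a sequence the median was 26.1% G. miR-149-3p ranked second for G content among them and the other 3p arms were among the names tied at rank 10. The complementary 5p arm of miR-149 was instead rich in C, with 10 C and 4 G in 23 bases.

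Library totals ran from 112914 to 871189 counts (median 265651) in DMSO libraries and from 119852 to 405902 (median 229324) in 27HC libraries. A count of 0 would allow up to 3 counts, which on the scale of CPM, counts per 1000000 counted, and TMM library sizes was 4.09 for the library with the most counts and 24.1 for that with the fewest. Every member was counted in every library. The neutrophil and myeloid markers miR-223-3p, miR-223-5p, miR-142a-3p and miR-142a-5p together made up between 83291 and 216664 CPM in DMSO libraries and between 113054 and 149157 CPM in 27HC libraries. In earlier results the libraries of replicates 1 to 4 stood apart from those of replicates 5 to 7 in both groups, for a reason the labels do not give. The sets also differed in depth. In DMSO, replicates 1 to 4 had at least 265651 counts and replicates 5 to 7 at most 252014. With 27HC, replicates 1 to 4 had at least 229324 counts and replicates 5 to 7 at most 127014. Set and depth can therefore not be told apart here. Values within each set are therefore given beside the results.

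The members were of middle to low abundance. By mean CPM over all libraries, miR-149-5p ranked 83rd, miR-139-3p 84th, miR-139-5p 96th, miR-150-5p 139th, miR-149-3p 141st and miR-150-3p 227th of the 239 tested names. In DMSO libraries the order, from the highest, was miR-149-5p, miR-139-3p, miR-139-5p, miR-150-5p, miR-149-3p and miR-150-3p. The neighbours miR-139-3p and miR-139-5p differed there by less than their spread, by 0.08 ± 0.52 on the log2 scale (SD, n = 7). The other neighbours kept their order in 6 or 7 of the 7 libraries. In 27HC libraries miR-139-3p stood first, above miR-149-5p in 7 of 7 libraries. There miR-149-5p and miR-139-5p differed by less than their spread, by 0.10 ± 0.43 (SD, n = 7), and miR-149-3p stood above miR-150-5p in 7 of 7 libraries, the reverse of the order in DMSO. The mature arms have 22 or 23 bases where their sequence was available, so no correction for length was made, and the ease with which each arm enters a library is not known.

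miR-149-5p, the more abundant strand of its hairpin, was lower in every 27HC library than in any DMSO library. In DMSO replicates 1 to 7 it had 261, 240, 671, 377, 96, 110 and 265 counts, and in 27HC replicates 1 to 7 it had 218, 114, 86, 180, 58, 48 and 37. On the CPM scale, which divides by library size, the DMSO libraries ran from 626 through a median of 889 to 1050 CPM, and the 27HC libraries from 303 through 465 to 569 CPM. The means were 864 ± 143 and 454 ± 94.5 CPM (SD, n = 7). The log2 fold change from edgeR's fit over all tested names was −0.92 (SE 0.16). It was the 15th lowest of the 239. Within replicates 1 to 4 the log2 fold change was −0.81 (SE 0.14) and within replicates 5 to 7 it was −0.997 (SE 0.23).

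miR-149-3p, the G-rich strand, moved the other way, with groups that overlapped. Its counts in DMSO replicates 1 to 7 were 51, 71, 42, 38, 15, 24 and 36, and in 27HC replicates 1 to 7 they were 105, 41, 37, 64, 21, 51 and 23. This gave DMSO libraries from 57.3 through a median of 121 to 239 CPM, and 27HC libraries from 168 through 190 to 390 CPM. The lowest DMSO value was that of replicate 3, the deepest library, and the highest of all was that of 27HC replicate 6. Of the 27HC libraries, 2 lay above the highest DMSO library and 0 below the lowest. The log2 fold change was 0.70 (SE 0.29), with 0.57 (SE 0.39) within replicates 1 to 4 and 0.996 (SE 0.36) within replicates 5 to 7.

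miR-150-5p, the Myb-repressing strand, was lower with 27HC by about the same factor as miR-149-5p. Its counts were 99, 100, 229, 79, 21, 40 and 42 in DMSO replicates 1 to 7 and 59, 37, 29, 40, 16, 16 and 9 in 27HC replicates 1 to 7. DMSO libraries ran from 141 through a median of 228 to 376 CPM and 27HC libraries from 73.8 through 128.3 to 172 CPM. The 27HC libraries lay close together apart from the lowest, replicate 7, while 5 of the 7 lay below the lowest DMSO library. The log2 fold change was −0.97 (SE 0.24), with −1.03 (SE 0.23) within replicates 1 to 4 and −0.70 (SE 0.35) within replicates 5 to 7. In both groups the level was lower in replicates 5 to 7. It was 311 ± 66.1 CPM (SD, n = 4) in DMSO replicates 1 to 4 and 179 ± 44.3 CPM (SD, n = 3) in DMSO replicates 5 to 7.

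miR-150-3p, the scarce strand of the same hairpin, rested on few counts. They were 6, 10, 10, 4, 4, 7 and 12 in DMSO replicates 1 to 7 and 7, 19, 6, 13, 18, 8 and 9 in 27HC replicates 1 to 7. A count of 4 has an exact 95% Poisson interval from 1.09 to 10.2 counts, which covers counting error only. DMSO libraries ran from 11.1 through a median of 32.1 to 40.2 CPM and 27HC libraries from 16.6 through 61.2 to 144 CPM, with 5 of the 7 27HC libraries above the highest DMSO library. The log2 fold change was 1.22 (SE 0.46). It was 0.73 (SE 0.37) with library depth as a term in the fit, an alternative chosen after seeing the data, a larger shift than that of any other member. With that term every other member also moved toward 0. miR-149-5p stood at −0.83, miR-149-3p at 0.60, miR-150-5p at −0.84, miR-139-5p at −0.30 and miR-139-3p at 0.37. Unlike its partner, miR-150-3p was higher in replicates 5 to 7, at 93.1 ± 44.8 CPM (SD, n = 3) with 27HC and 37.4 ± 4.60 CPM (SD, n = 3) with DMSO, against 43.9 ± 31.1 and 20.3 ± 10.2 CPM in replicates 1 to 4 (SD, n = 4).

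miR-139-5p, the strand known from tumours, differed least. Its counts were 152, 159, 401, 263, 49, 80 and 146 in DMSO replicates 1 to 7 and 158, 77, 108, 116, 68, 60 and 39 in 27HC replicates 1 to 7. DMSO libraries ran from 393 through a median of 535 to 732 CPM and 27HC libraries from 320 through 374 to 545 CPM. The groups overlapped, with 4 of the 7 27HC libraries below the lowest DMSO library. The log2 fold change was −0.34 (SE 0.17). Within replicates 1 to 4 it was −0.49 (SE 0.18), and within replicates 5 to 7 it was −0.01 (SE 0.24).

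miR-139-3p was on average about as abundant as its partner in DMSO libraries and more abundant in 27HC libraries. Its counts were 158, 141, 255, 203, 65, 143 and 200 in DMSO replicates 1 to 7 and 306, 222, 168, 249, 64, 102 and 66 in 27HC replicates 1 to 7. DMSO libraries ran from 348 through a median of 565 to 813 CPM and 27HC libraries from 513 through 780 to 1030 CPM. The groups overlapped, with 2 of the 7 27HC libraries above the highest DMSO library. The log2 fold change was 0.39 (SE 0.19). It was 0.84 (SE 0.20) within replicates 1 to 4 and −0.12 (SE 0.24) within replicates 5 to 7. The difference between these sets, tested by an interaction term over all tested names, had an unadjusted p of 0.0123 and an edgeR adjusted p of 0.267. This test was added after seeing the data. By edgeR, 0 names passed for that term after adjustment, and 24 had an unadjusted p below 0.05.

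**Figure D1:**
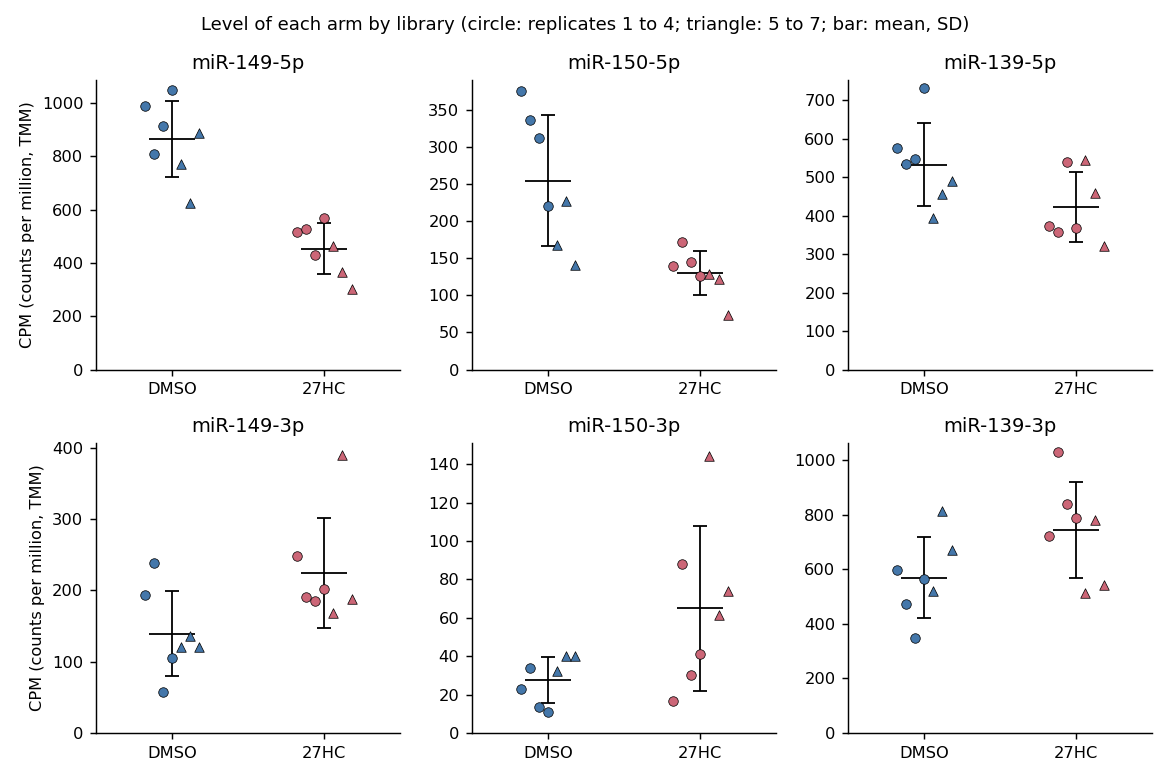
Level of each arm in CPM on TMM library sizes (vertical axes, from 0, scaled per panel) in the 7 DMSO and the 7 27HC libraries. Circles are replicates 1 to 4, triangles replicates 5 to 7, and bars the mean and SD. On average the 27HC libraries lie lower in the 5p panels, without overlap for miR-149-5p, and higher in the 3p panels, with overlap in each.

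Of the 6 members, 2 had an edgeR adjusted p under 0.05, miR-149-5p and miR-150-5p, beside 12.6% of all tested names. When replicates 1 to 4 and 5 to 7 had their own term, miR-150-3p passed as well, making 3 of the 6, beside 16.3% of all tested names. In CPM, 1 of the 6 did not overlap between groups, beside 5.44% of all tested names. Since the same contrast chose the members, nothing is read from these counts. Over the whole table the median log2 fold change was 0.01. In bulk vesicle RNA, fewer vesicles of a kind and less of a microRNA per vesicle cannot be told apart.

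The ratio of the arms within a library does not depend on how the library was scaled, but it can still differ with depth. The deepest library, DMSO replicate 3, had the highest ratio of all libraries for each hairpin. Among 27HC libraries the deepest, replicate 1, had the highest ratio for miR-150 only. The part of depth in the ratios was not tested. For miR-149 the 5p counts were 5.12, 3.38, 16.0, 9.92, 6.40, 4.58 and 7.36 times the 3p counts in DMSO replicates 1 to 7. They were 2.08, 2.78, 2.32, 2.81, 2.76, 0.941 and 1.61 times the 3p counts in 27HC replicates 1 to 7. All 7 ratios with 27HC lay below the lowest DMSO ratio. On the log2 scale, with 0.5 added to each count, the mean was 2.72 ± 0.74 with DMSO and 1.03 ± 0.57 with 27HC (SD, n = 7), a difference of −1.69 (SE 0.36) or 3.22-fold. The groups also did not overlap within replicates 1 to 4, where the difference was −1.54, or within replicates 5 to 7, where it was −1.88.

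For miR-150 the 5p counts were 16.5, 10.0, 22.9, 19.8, 5.25, 5.71 and 3.50 times the 3p counts in DMSO replicates 1 to 7 and 8.43, 1.95, 4.83, 3.08, 0.889, 2.0 and 1.0 times in 27HC replicates 1 to 7. The mean log2 ratio was 3.18 ± 1.04 with DMSO and 1.21 ± 1.14 with 27HC (SD, n = 7), a difference of −1.96 (SE 0.58) or 3.90-fold. Over all libraries the groups overlapped, since the ratio was lower in replicates 5 to 7 of both groups. Within each set they did not overlap. The means were 3.95 ± 0.51 and 1.92 ± 0.87 in replicates 1 to 4 (SD, n = 4), and 2.15 ± 0.35 and 0.26 ± 0.61 in replicates 5 to 7 (SD, n = 3), with differences of −2.02 and −1.89.

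For miR-139 the arms were close to even on average over the DMSO libraries, and 3p was above 5p in most 27HC libraries. The 5p counts were 0.962, 1.13, 1.57, 1.30, 0.754, 0.559 and 0.730 times the 3p counts in DMSO replicates 1 to 7 and 0.516, 0.347, 0.643, 0.466, 1.06, 0.588 and 0.591 times in 27HC replicates 1 to 7. The mean log2 ratio was −0.08 ± 0.52 with DMSO and −0.80 ± 0.49 with 27HC (SD, n = 7), a difference of −0.73 (SE 0.27) or 1.65-fold. The values within the sets of replicates were unlike, though the ratio was not tested between them. In replicates 1 to 4 the means were 0.29 ± 0.30 with DMSO and −1.05 ± 0.37 with 27HC (SD, n = 4). In replicates 5 to 7 they were −0.56 ± 0.24 with DMSO and −0.48 ± 0.49 with 27HC (SD, n = 3). Within replicates 1 to 4 the groups did not overlap and the difference was −1.34. Within replicates 5 to 7 they overlapped and the difference was 0.09, while the term for the set difference passed for neither arm (edgeR adjusted p 0.267 for miR-139-3p and 0.503 for miR-139-5p).

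**Figure D2:**
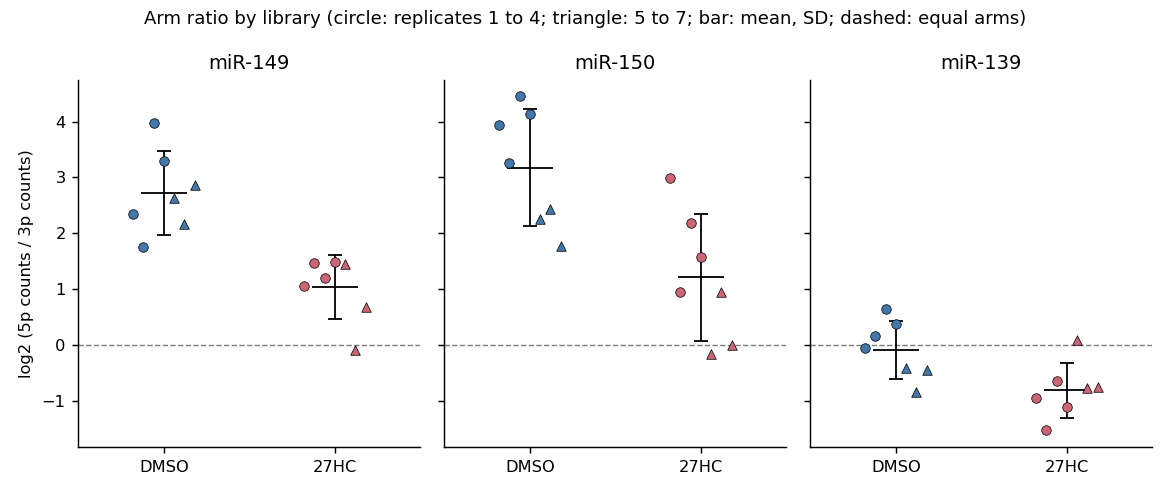
Log2 ratio of 5p to 3p counts, with 0.5 added to each, in every library (vertical axis), by group and hairpin. Circles are replicates 1 to 4, triangles replicates 5 to 7, bars the mean and SD, and the dashed line equal arms. For miR-149 all 27HC libraries lie below all DMSO libraries, and for miR-150 this holds within each set of replicates.

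The arm that was more abundant is described without a test, since these ratios are the values whose difference chose the members. In DMSO libraries the 5p arm exceeded the 3p arm in 7 of 7 libraries for miR-149 and in 7 of 7 for miR-150. For miR-139 it did so in 3 of 7. In 27HC libraries the 5p arm exceeded the 3p arm in 6 of 7 libraries for miR-149, in 5 of 7 for miR-150 and in 1 of 7 for miR-139.

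Given as a share of the counts of both arms, 5p held 86.1 ± 5.66% with DMSO and 66.9 ± 9.22% with 27HC for miR-149, 89.0 ± 6.86% and 68.2 ± 15.8% for miR-150, and 48.7 ± 8.87% and 36.6 ± 7.92% for miR-139 (SD, n = 7). The sum of both arms was lower with 27HC for miR-149 and miR-150, with groups that overlapped. For miR-149 it was 1003 ± 147 CPM with DMSO and 679 ± 104 CPM with 27HC, and for miR-150 282 ± 84.5 and 195 ± 50.4 CPM (SD, n = 7). For miR-139 the sum was 1103 ± 164 and 1168 ± 186 CPM (SD, n = 7), a difference smaller than the spread. Over all libraries its parts differed in opposite directions, as they did within replicates 1 to 4. Within replicates 5 to 7 they did not, with log2 fold changes of −0.01 for miR-139-5p and −0.12 for miR-139-3p.

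Arms of other hairpins give the background for this pattern. There were 33 hairpins with both arms tested under names that differ only in the ending, 5p or 3p. Of these, 30 were not members. Arms with other names, such as miR-129-5p and miR-129-2-3p, were not paired and are not in these counts. Of those 30, 12 had arms with fold changes of opposite sign, 5 with 5p lower and 3p higher and 7 the other way. Another 11 had both arms lower and 7 both higher. The last include miR-486a and miR-486b, counted as separate pairs although their 5p counts are identical. The median absolute difference between the log2 fold changes of the arms was 0.24. The lowest differences, 5p minus 3p, were −0.52 for miR-181c, −0.45 for miR-191 and −0.41 for miR-532. The members stood at −2.18 for miR-150, −1.62 for miR-149 and −0.73 for miR-139, the lowest 3 of the 33, on the values that chose them.

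At the other end, the difference was 1.06 for miR-129b, 0.80 for miR-142a and 0.78 for miR-574. miR-142a is a microRNA of blood cells, and miR-129b is encoded opposite to another miR-129 hairpin, so that its counts are uncertain if reads of both were not told apart. The arms of miR-129b and miR-142a were all lower and called (log2 fold changes of −1.14 and −2.20 for miR-129b-5p and miR-129b-3p, and of −0.74 and −1.53 for miR-142a-5p and miR-142a-3p), and they differed in the size of the change. Among the hairpins paired by name, no other pair outside the members had an arm called. miR-129-5p and miR-129-2-3p, which were not paired, had log2 fold changes of −3.29 and −2.83. As in miR-149 and miR-150, 22 of the 30 other hairpins had more 5p than 3p counts over all libraries.

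**Figure D3:**
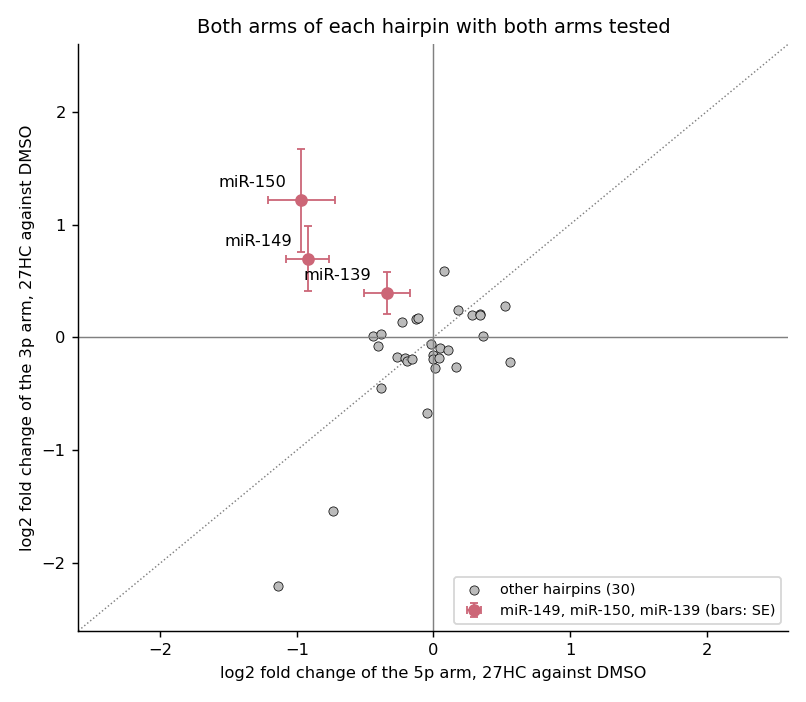
Log2 fold change of the 3p arm (vertical axis) against that of the 5p arm (horizontal axis), 27HC against DMSO. Shown are the 33 hairpins with both arms tested under matching names. Red points with SE bars are the 3 member hairpins, grey points the other 30, and the dotted line equal fold changes. The members lie in the upper left, with 5p lower and 3p higher.

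Names rich in G had a higher median fold change over the table. Tested names with at least 40% G numbered 25, with a median log2 fold change of 0.29, and 20 of them were above 0. Without the 3 member 3p arms there were 22, with a median of 0.21, and 17 were above 0. Names with under 20% G numbered 58, with a median of −0.13, and 26 were above 0. The 69 names with 20 to under 30% G and the 49 with 30 to under 40% had medians of −0.01 and −0.05. The part of G content in the members' differences was not tested.

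**Figure D4:**
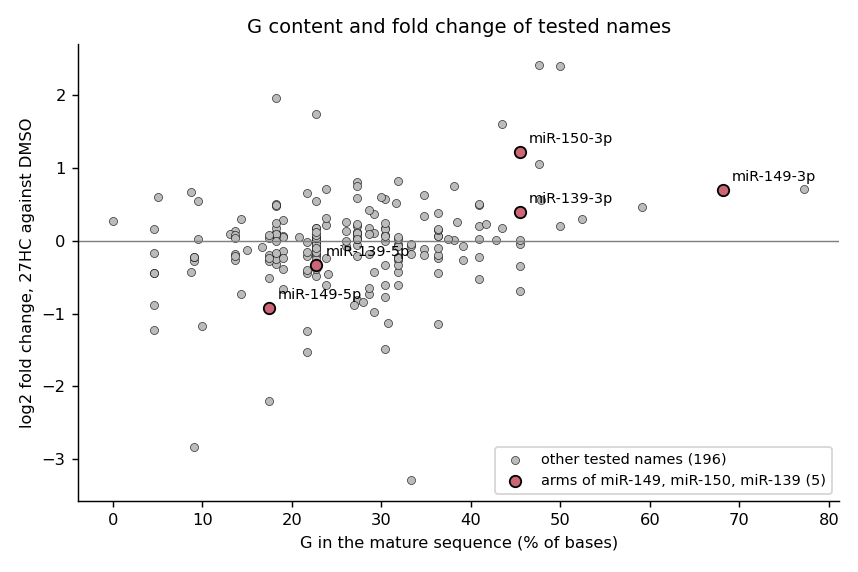
Log2 fold change, 27HC against DMSO (vertical axis), against the percentage of G in the mature sequence (horizontal axis) for the 201 tested names with a RefSeq sequence. Red points are the 5 members with a sequence. The 3 member 3p arms lie at 45.5% and 68.2% G above 0, and the 2 member 5p arms at 17.4% and 22.7% below 0.

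After the mean of each treatment was removed within replicates 1 to 4 and within replicates 5 to 7, the names whose log2 CPM moved most like each member were listed as a description over 14 libraries. The libraries share depth and scaling, and no test was made. The arms of a hairpin did not move closely together, with a Pearson r of −0.19 for miR-149, 0.45 for miR-150 and 0.24 for miR-139. Counting error also lowers r where an arm is scarce, as for miR-150-3p with 4 to 19 counts per library. miR-149-5p was most like miR-326-3p (r 0.84), miR-93-3p (0.64) and miR-423-3p (0.63). miR-149-3p was most like miR-2137 (0.93), miR-709 (0.87) and miR-1946a (0.82). miR-2137, with 52.4% G, is also among the names richest in G.

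miR-150-5p was most like let-7j (r 0.81), miR-135a-5p (0.71) and miR-7667-5p (0.64). miR-150-3p was most like miR-5106 (0.86) and miR-669a-3p and miR-669o-3p (0.79 each), the last 2 with identical values. miR-139-5p was most like miR-98-5p (0.79), miR-93-3p (0.71) and miR-484 (0.64). miR-139-3p was most like miR-423-5p (0.89), miR-1981-5p (0.88) and miR-486a-5p (0.86).

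Since miR-150-5p is abundant in lymphocytes, other lymphoid microRNAs were listed beside it. Of 5 names, 4 were analysed and tested, with a median log2 fold change of 0.00, beside 0.01 for all tested names. miR-155-5p, which B and T cells and activated myeloid cells make, was called lower, at −1.48 (SE 0.40, edgeR adjusted p 0.0216). miR-342-3p, miR-181a-5p and miR-181b-5p stood at 0.09, −0.08 and 0.10 and were not called. The summed level of the list ran from 2549 to 2947 CPM in DMSO libraries and from 2325 to 3205 CPM in 27HC libraries. The part of lymphoid cells in the level of miR-150-5p was not tested.

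Of the 4 neutrophil and myeloid names, 2 were called and lower, miR-142a-3p and miR-142a-5p, with a list median of −0.50. The defining neutrophil microRNA miR-223-3p, which held most of the summed level, stood at −0.26 (edgeR adjusted p 0.406) and miR-223-5p at 0.17 (edgeR adjusted p 0.388), and neither was called. The erythroid list had 2 of 5 names tested, 0 called and a median of 0.34. Those were miR-486a-5p and miR-486b-5p, with identical counts. The summed list, which holds these counts under both names, ran from 962 to 2053 CPM with DMSO and from 1403 to 2127 CPM with 27HC. The endothelial and stromal list had 4 of 6 tested, 0 called and a median of −0.04, with sums from 1015 to 2269 CPM and from 974 to 2365 CPM. The neural list had 2 of 3 tested, 0 called and a median of 0.35, with sums from 1078 to 1643 CPM and from 1296 to 1582 CPM. miR-122-5p, the liver marker, stood at −0.08 and was not called, at 2476 to 4587 CPM with DMSO and 1895 to 3672 CPM with 27HC. No listed name that was analysed was at 0 in all libraries.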

How the data were processed

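The deposited values were raw counts, whole numbers per mature miRNA and library made by the authors, from libraries prepared with the QIAseq miRNA kit, per the labels' protocols. The submitters' processing notes name GRCm39 (mm39), R 4.1.2, edgeR and limma. The counting tool, the use of molecular identifiers and the rule for reads that match several names are not given in the sources used here. Every column and library was matched, with 0 left over.

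Under R 4.3.3, edgeR 4.0.16 was fitted by quasi-likelihood to these counts, with treatment as the one term, TMM scaling and filterByExpr. That filter turns a minimum count of 10 into a CPM level at the median library size. The level must be reached in as many libraries as the smaller group has, with a total count of at least 15. The fit tested 239 names, which held 99.4% of the counts. A name was called below 0.05 after Benjamini-Hochberg adjustment over all tested names. Each SE is the fold change over the root of F. The fit was tested on simulated data. CPM values use TMM library sizes, and log2 CPM a prior count of 2. A planned test of which arm dominates is not reported, since the values it used also chose the members. Alternatives used DESeq2 1.42.0 and limma 3.58.1, and structures RNAfold 2.7.2. All 42 pairs of libraries within a group differed beyond sampling noise (lowest chi-square per degree of freedom 5.65), so none was counted as a copy.

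The members, lists and tests were chosen with earlier results of these data known. Named are the 6 members, the 3 other hairpins at each end of the arm difference, the 3 names most like each member, names with a shared seed, and the marker lists for neutrophil and myeloid, lymphoid, erythroid, endothelial and stromal, neural and liver miRNAs.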

Additional observations from a re-analysis of the deposited data

Results flagged for a closer look

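The members' CPM, arm ratios and sums of arms gave 24 groups of 7 libraries. In 1 group a single library lay apart from the rest, and by chance 1.2 such groups would be found. This was 27HC replicate 6 for miR-149-3p, at 390 CPM (51 counts). The nearest 27HC value was 248 CPM, so that the gap took 0.639 of the range of the group. Without that library the log2 fold change of miR-149-3p was 0.58 in place of 0.70.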

How the results depend on the processing

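The directions of both arms of miR-149 and of miR-150-5p held under all 24 alternatives each, and that of miR-150-3p under the 15 that gave a value. miR-150-3p reached the level of the filter on low counts mostly in 27HC libraries, where it was higher. Its held direction in filtered fits is therefore not read as support. Nor are the other held directions, since the members were chosen by direction on these same data. In 7 of 14 leave-one-out fits, and within each set of replicates, miR-150-3p fell below the filter. The values for miR-139 moved with the set, a difference that was not called for either arm. In replicates 5 to 7 alone miR-139-3p turned to −0.12, miR-139-5p stood at −0.0083 and the arm ratio difference turned to 0.088. In replicates 1 to 4 alone miR-139-3p stood at 0.84 and the ratio difference at −1.34. Leaving out one library gave log2 fold changes from −1.01 to −0.79 for miR-149-5p, 0.58 to 0.88 for miR-149-3p, −1.01 to −0.78 for miR-150-5p, 0.97 to 1.34 for miR-150-3p, −0.40 to −0.19 for miR-139-5p and 0.34 to 0.52 for miR-139-3p. The ratio differences ran from −1.85 to −1.48, −2.26 to −1.73 and −0.87 to −0.60 for miR-149, miR-150 and miR-139. Mean log2 ratios in 27HC libraries ran from 0.96 to 1.22 for miR-149 and from −0.95 to −0.69 for miR-139. The mean DMSO log2 ratio of miR-139, near even over both sets together, ran from −0.20 to 0.048, the latter without DMSO replicate 6.

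The table gave 30 calls, 21 to 34 without one library, 42 of 242 names in replicates 1 to 4 alone and 12 of 198 in replicates 5 to 7 alone. The cause was not tested. Hairpins with arms of opposite sign numbered 15 of 33, 262 of 585 with no filter on low counts and 9 of 23 in replicates 5 to 7 alone. With the replicate number as a block, 37 names were called, including 3 of the 6 members, and miR-150-3p, then at 1.10, was the added one, as it was when replicates 1 to 4 and 5 to 7 had their own term. In replicates 1 to 4 alone 3 members were called (miR-149-5p, miR-150-5p and miR-139-3p) and in replicates 5 to 7 alone 1 (miR-149-5p). The other alternatives called miR-149-5p and miR-150-5p. No label says what the replicate numbers, or the 2 running numbers in the library names, mark. Deviations of same-numbered libraries correlated from 0.07 to 0.60, and 3 of 7 libraries in each group correlated best with their own number. Depth limits miR-150-3p most, with 53 counts over all DMSO and 80 over all 27HC libraries.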
